A study of Mus musculus with 6 samples.

Results

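Genes of cholesterol synthesis, uptake, intracellular handling and export were examined in mouse leukaemia cells treated with panobinostat or vehicle. The genes were chosen by name, with earlier results of these data known, as 33 symbols with known roles in the pathway. All 33 were found among the 27179 genes of the deposited count table. They comprise 18 enzymes of synthesis (7 of the mevalonate steps and 11 of the squalene and sterol steps), 1 lipoprotein receptor, 5 genes that control the SREBP transcription factors, 4 genes of intracellular transport and storage, and 5 genes of the LXR receptors and of export. All 33 passed the filter on low counts.

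Cells of both groups came from C57BL/6 mice and are labelled A/E9a;NRASG12D;Ifnar1-/-, that is, they carry the A/E9a fusion and an activated NRAS, and lack Ifnar1, a chain of the type I interferon receptor. The vehicle group and the panobinostat group had 3 libraries each, sorted from spleen as live GFP-positive cells after 3 days of treatment. Panobinostat is an inhibitor of histone deacetylases. With the receptor knockout in both groups and no leukaemia with intact Ifnar1 here, nothing in this comparison bears on the knockout. Whether each library is from its own animal, and whether the leukaemia is 1 clone, is not stated in the labels. A p-value here therefore measures the spread among 6 libraries and no more, and that spread may be technical.

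Cells make cholesterol from acetyl-CoA through mevalonate, farnesyl diphosphate, squalene and lanosterol. When sterol in the endoplasmic reticulum is low, SCAP escorts SREBP proteins to the Golgi, where they are cleaved and released to activate genes of synthesis and lipoprotein uptake, while INSIG proteins hold the SCAP-SREBP complex back when sterol is plentiful. When oxysterols accumulate, the LXR nuclear receptors turn on the exporters Abca1 and Abcg1 and also Mylip, a ubiquitin ligase that removes lipoprotein receptors. Dividing blood cells and leukaemia cells need sterol for new membranes.

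Library totals ran from 31989622 to 35962605 counts, and levels are given as CPM (counts scaled to library size with TMM factors). Vehicle library 1 stood apart from its group: over 13207 tested genes its log2 CPM differed by a median of 0.36 and 0.32 from vehicle libraries 2 and 3, which differed from each other by 0.18, and by 0.19 to 0.28 from the panobinostat libraries. Results that rest on it are therefore given with and without it. EdgeR's quasi-likelihood test called 0 genes (0% of those tested), and 301 had an unadjusted p under 0.05, while limma-voom called 0 and DESeq2 called 9. Summed over each marker list, the B cell genes reached 5.59 to 51.4 CPM, the T cell genes 2.22 to 13.3, the macrophage genes 16.7 to 33.3 and the granulocyte genes 1.06 to 5.59. Erythroid genes summed to 2531 to 13466 CPM and mast cell and basophil genes to 2657 to 4982 CPM, so that some genes of both lists were abundant. Levels within each list differed widely. Hba-a1 ran from 605 to 7690 CPM and Alas2 from 5.92 to 171 CPM. Il1rl1 ran from 760 to 1218 CPM, while Tpsab1, Mcpt8 and Prss34 reached at most 0.821, 0.474 and 1.29 CPM outside panobinostat library 1. In bulk libraries, fewer cells of a type and less RNA per cell cannot be told apart.

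The members with all panobinostat libraries above all vehicle libraries were Lrp8 and Soat1, 2 of 33 beside 3.79% of all tested genes, and 0 of 33 passed the threshold of an adjusted p of 0.05 in edgeR's test, with each member's adjusted p at 0.998. Lrp8, a lipoprotein receptor that also binds reelin, stood 1.86 times as high in panobinostat as in vehicle libraries by the ratio of means. Soat1, which esterifies cholesterol for storage, stood 2.83 times as high at a low level. The synthesis enzymes overlapped between the groups in 18 of 18 cases. Most of them, with Srebf2 and the exporter Abcg1, stood higher in vehicle library 1 than in vehicle libraries 2 and 3.

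**Figure D1:**
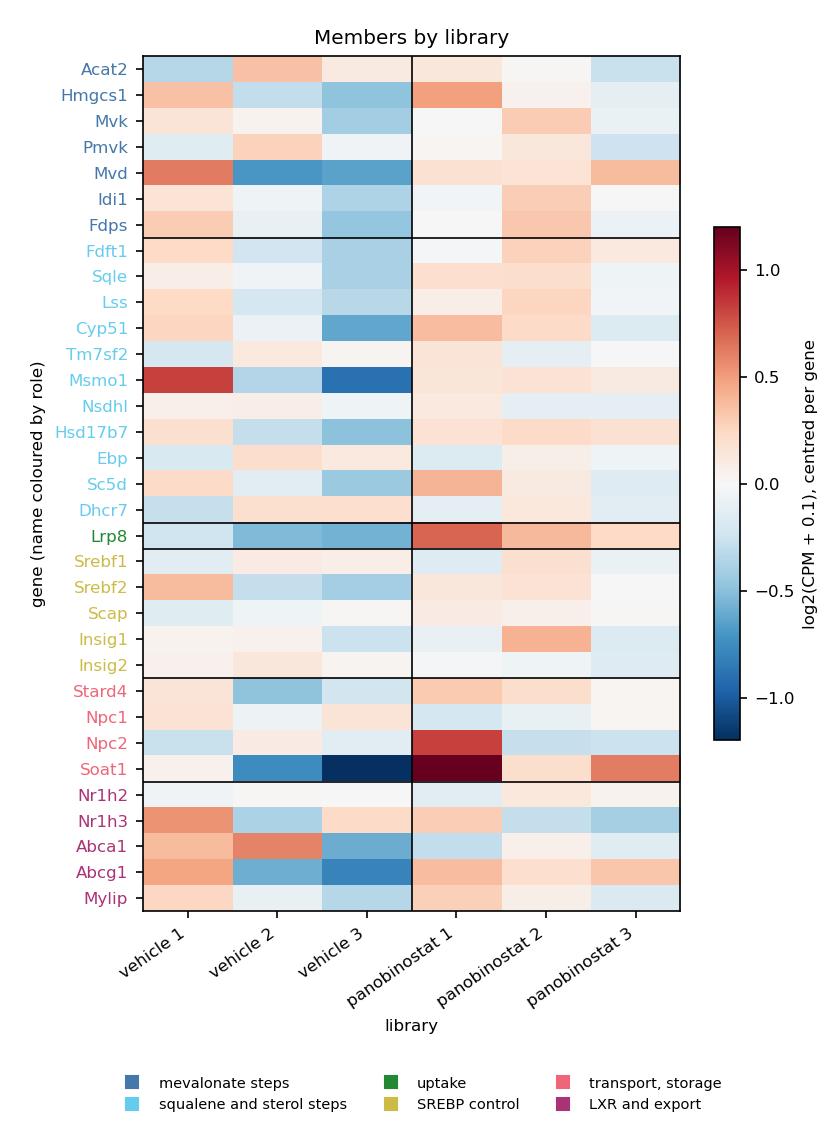
Heat map of the 33 members (rows, names coloured by role) in the 6 libraries (columns), as log2(CPM + 0.1) centred on each gene's mean, with colours saturated at 1.2 in either direction. Lrp8 is below its mean in the 3 vehicle and above it in the 3 panobinostat libraries, Soat1 is lowest in vehicle libraries 2 and 3, and Mvd, Msmo1, Srebf2 and Abcg1 are high in vehicle library 1 and low in vehicle libraries 2 and 3.

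Lrp8 (Entrez gene 16975, chromosome 4, 107802200 to 107876840, GRCm38) was the single uptake gene of the list. In libraries 1, 2 and 3, the order used throughout, its level was 26.7, 21.8 and 21.2 CPM with vehicle, against 51.1, 41.2 and 37.2 CPM with panobinostat. Each panobinostat library lay above each vehicle library, which held for 3.79% of all tested genes. The means were 23.2 ± 3.01 and 43.2 ± 7.17 CPM (SD, n = 3), and the log2 fold change was 0.89 (SE 0.16, unadjusted p 0.00122, edgeR adjusted p 0.998). DESeq2 called Lrp8 higher, with an adjusted p of 0.0107, as 1 of 33 members, where it called 0.053% of all tested genes higher and 0.0151% lower. Without vehicle library 1 edgeR called Lrp8 higher too, with a log2 fold change of 0.99 and an adjusted p of 0.0443. Over 16 alternatives the log2 fold change ran from 0.76 to 0.99 and the adjusted p from 0.00624 to 1.00. Scarb1, a lipoprotein receptor outside the 33 members, stood at 76.8 to 100.6 CPM with overlapping groups. Its log2 fold change was 0.08 (SE 0.12, edgeR unadjusted p 0.526), so the rise of Lrp8 does not stand for lipoprotein receptors in general.

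Transport and storage genes differed in level and in pattern. Soat1 (Entrez gene 20652, chromosome 1, 156428108 to 156474328) had 58, 35 and 19 counts with vehicle, or 1.83, 1.00 and 0.551 CPM. With panobinostat it had 172, 73 and 93 counts, or 4.78, 2.05 and 2.76 CPM. The groups did not overlap, although vehicle library 1 and panobinostat library 2 were close. The log2 fold change was 1.501 (SE 0.54, unadjusted p 0.0308, edgeR adjusted p 0.998), and no alternative called it: its adjusted p ran from 0.0569 to 1.00 and its log2 fold change from 1.09 to 2.02. Among the 33 members 2 had an unadjusted p under 0.05, Lrp8 and Soat1, against 2.28% of all tested genes.

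Stard4, which carries cholesterol between membranes, stood at 55.2, 35.5 and 42.6 CPM with vehicle, against 61.8, 57.6 and 50.4 CPM with panobinostat, so that vehicle library 1 lay within the range of the panobinostat libraries. Npc2, which hands cholesterol to NPC1 inside the lysosome, stood at 72.3, 93.4 and 79.9 CPM with vehicle, against 154, 72.1 and 73.1 CPM with panobinostat. Its value in panobinostat library 1 was the highest of the 6, and the other two panobinostat libraries lay at or near the lowest vehicle library. Panobinostat library 1, in which Soat1 also stood highest, had the highest summed level of the mast cell and basophil list, 4982 CPM against 2657 to 2995 CPM elsewhere. In that library 8 of the 11 tested genes of the list reached their highest level, and Mrgprb1 was at 0. The erythroid list was lowest there, at 2531 CPM against 6039 to 13466 CPM elsewhere, with 10 of its 11 tested genes at their lowest. Of the 33 members 11 stood highest in panobinostat library 1, Lrp8 among them, beside 21.3% of all tested genes. Another 10 stood highest in panobinostat library 2, beside 8.94% of all tested genes, so that high values were not particular to library 1. The part of mast cells, basophils or erythroid cells in these results was not tested. Without panobinostat library 1 the log2 fold change of Npc2 went from 0.28 to -0.17, and that of Soat1 from 1.501 to 1.09. Npc1, the lysosomal membrane exporter of cholesterol, stood at 51.1 ± 4.51 CPM with vehicle, against 45.1 ± 3.65 CPM with panobinostat (SD, n = 3), with overlapping groups.

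**Figure D2:**
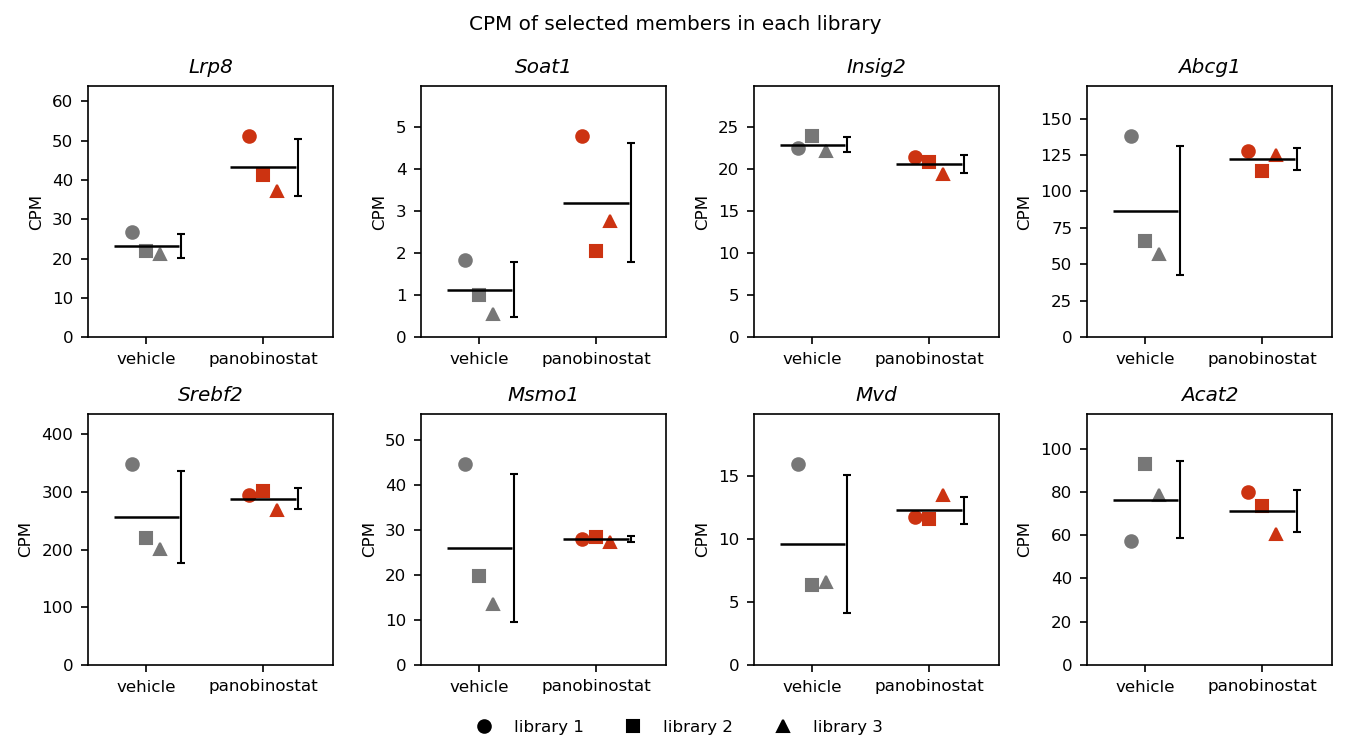
CPM of 8 members in each library, with vehicle in grey and panobinostat in red, marker shape giving the library number, horizontal lines the group mean and bars 1 SD (n = 3). Lrp8, Soat1 and Insig2 do not overlap between groups, while vehicle library 1 is the highest of the 6 for Abcg1, Srebf2, Msmo1 and Mvd and the lowest for Acat2.

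The synthesis enzymes were expressed in every library, between 6.34 and 92.9 CPM, and differed by 1.17 to 3.30 times between their highest and lowest library. Estimates were higher with panobinostat for 13 and lower for 5 of the 18, where 50.2% of all tested genes had a higher estimate. Their median log2 fold change was 0.15, beside 0.0009 over all tested genes, and 0 had an unadjusted p under 0.05. Vehicle library 3 was the lowest library for 11 of the 18, beside 18.2% of all tested genes. All 3 panobinostat libraries lay above it for 12, beside 30.8%, a count that contains those 11 by definition. Vehicle library 3 was singled out after the values were seen.

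Promoter sequence was taken from RefSeq, where 27 of the 33 members had 1 or more entries, 38 promoters in all, each spanning 250 bases before to 50 after a transcription start in GRCm38.p6. Both strands were searched for TCACCCCAC, a core of the sterol regulatory element that SREBP binds, for its relaxed form TCACNCCAC, which includes it, for CCAAT, the box bound by the SREBP partner NF-Y, for the E-box CACGTG, and for the LXR element made of a spaced direct repeat. CCAAT was present in 14 of the 15 synthesis genes with an entry, all but Acat2, and in 21 of the 27 members, against 41.1% of 27025 genes and 37.4% of 32851 promoters. These shares cover all genes with an entry, whether or not they passed the filter here, whereas all members did. A gene with more entries also has more chances of a match. TCACCCCAC was found in 1 of the 27, Hmgcs1, against 0.614% of genes and 0.551% of promoters, and the relaxed form added no member, against 1.44% of genes and 1.24% of promoters. The E-box was found in 6 of the 27 members, against 8.09% of genes and 7.15% of promoters. The LXR element was found in 0 members, against 0.0148% of genes and 0.0152% of promoters. That exact pattern is so rare, in 4 of 27025 genes, that 0 members could not show an absence of LXR sites. Nor does 1 match among 27 members to the exact or relaxed sterol pattern show that the others lack SREBP sites. The exporter Abcg1 had no entry, nor had Fdps, Fdft1, Sqle, Stard4 and Npc1. A match is a description of these letters and not a measured site.

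Stretches of 180 bases just before the start are shown for Hmgcs1, which held the sterol element, and for Mvd, Msmo1 and Srebf2, members that edgeR called higher once both libraries numbered 1 were left out and whose promoter entry begins at the annotated 5′ end of the gene. Capitals mark TCACCCCAC and CCAAT, the latter as ATTGG where it lies on the other strand. They lie at chr13:119690171-119690350 (plus strand), chr8:122443423-122443602 (minus), chr8:64733579-64733758 (minus) and chr15:82147089-82147268 (plus) in GRCm38.p6, 5′ to 3′ along the gene.
Hmgcs1: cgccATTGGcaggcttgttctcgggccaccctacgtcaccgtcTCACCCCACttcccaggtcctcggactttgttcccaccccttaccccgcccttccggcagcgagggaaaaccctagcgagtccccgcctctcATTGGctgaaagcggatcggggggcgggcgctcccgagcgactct
Mvd: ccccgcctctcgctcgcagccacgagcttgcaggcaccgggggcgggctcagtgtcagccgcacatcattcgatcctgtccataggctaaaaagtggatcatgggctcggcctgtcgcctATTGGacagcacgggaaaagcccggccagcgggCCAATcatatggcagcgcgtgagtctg
Msmo1: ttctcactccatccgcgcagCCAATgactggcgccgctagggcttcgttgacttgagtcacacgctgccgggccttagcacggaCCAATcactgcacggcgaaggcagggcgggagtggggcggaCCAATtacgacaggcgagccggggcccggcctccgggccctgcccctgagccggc
Srebf2: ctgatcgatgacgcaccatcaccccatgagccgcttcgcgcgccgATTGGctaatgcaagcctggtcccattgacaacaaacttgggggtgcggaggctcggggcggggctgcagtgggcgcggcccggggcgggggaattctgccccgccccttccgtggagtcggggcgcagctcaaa
Within these stretches Msmo1 held 3 CCAAT boxes, Hmgcs1 and Mvd 2 each, and Srebf2 1. The 3 promoter entries of Lrp8 held no match to any of the motifs searched.

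Of the mevalonate steps, Acat2, the cytosolic acetoacetyl-CoA thiolase that opens the pathway, stood at 57.5, 92.9 and 78.7 CPM with vehicle, against 79.8, 73.5 and 60.6 CPM with panobinostat, with vehicle library 1 lowest. Hmgcs1, which makes HMG-CoA, ran the other way within the vehicle group, at 66.8, 42.4 and 37.3 CPM, and stood at 73.6, 53.9 and 47.9 CPM in panobinostat libraries. Mevalonate kinase, Mvk, ranged from 10.9 to 18.02 CPM and phosphomevalonate kinase, Pmvk, from 26.4 to 37.8 CPM, each with overlapping groups. Mvd, the decarboxylase that yields isopentenyl diphosphate, had the widest spread of the 7. Its level was 16.0, 6.34 and 6.58 CPM with vehicle, against 11.8, 11.6 and 13.5 CPM with panobinostat, so that vehicle library 1 lay above all 3 panobinostat libraries and vehicle libraries 2 and 3 below them. The isomerase Idi1 ranged from 47.7 to 75.6 CPM and Fdps, farnesyl diphosphate synthase, from 39.6 to 68.5 CPM, each lowest in vehicle library 3 and highest in panobinostat library 2.

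Of the squalene and sterol steps, Fdft1, squalene synthase, stood at 85.3, 61.9 and 55.2 CPM with vehicle, against 71.8, 87.5 and 78.5 CPM with panobinostat. Squalene epoxidase, Sqle, ranged from 45.9 to 70.0 CPM, and Lss, which closes squalene epoxide into lanosterol, from 28.02 to 42.4 CPM. Cyp51, the lanosterol demethylase, stood at 47.7, 38.0 and 25.9 CPM with vehicle, against 51.5, 46.9 and 35.7 CPM with panobinostat. These 4 genes were lowest in vehicle library 3. Msmo1, the methylsterol oxidase, varied most among the synthesis enzymes, 3.30 times between libraries, at 44.8, 19.8 and 13.5 CPM with vehicle, against 28.1, 28.6 and 27.3 CPM with panobinostat. The vehicle libraries of Msmo1 thus spread over 26.0 ± 16.5 CPM and the panobinostat libraries over 27.99 ± 0.631 CPM (SD, n = 3).

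Hsd17b7, a sterol ketoreductase, stood at 15.5, 11.1 and 9.66 CPM with vehicle, against 15.3, 15.9 and 15.4 CPM with panobinostat, with vehicle library 1 inside the panobinostat range. Its log2 fold change of 0.36 (SE 0.20) was the highest of the synthesis enzymes. Sc5d, a desaturase of the late steps, ranged from 17.03 to 30.9 CPM. Tm7sf2, a sterol reductase, stayed between 6.38 and 8.23 CPM and Nsdhl, a sterol dehydrogenase, between 21.4 and 25.0 CPM, so that these 2 varied least. The isomerase Ebp stood at 46.7, 61.2 and 57.5 CPM with vehicle, against 47.3, 55.6 and 51.2 CPM with panobinostat. Dhcr7, which completes cholesterol, stood at 39.5, 54.8 and 55.4 CPM with vehicle, against 44.7, 52.3 and 43.7 CPM with panobinostat. For both, vehicle library 1 was the lowest of the 6.

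The synthesis enzymes thus did not follow 1 order of libraries. Vehicle library 1 lay above vehicle libraries 2 and 3 for 12 of them (Hmgcs1, Mvk, Mvd, Idi1, Fdps, Fdft1, Sqle, Lss, Cyp51, Msmo1, Hsd17b7 and Sc5d) and below both for 5 (Acat2, Pmvk, Tm7sf2, Ebp and Dhcr7), where 40.2% of all tested genes had it above both. All 3 panobinostat libraries lay above vehicle libraries 2 and 3 for 8 of them (Hmgcs1, Mvd, Idi1, Fdps, Fdft1, Lss, Msmo1 and Hsd17b7), and for 21.0% of all tested genes. Both counts were taken after the values were seen. Ebp and Dhcr7 had all 3 panobinostat libraries below vehicle libraries 2 and 3.

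Among the control genes of the pathway Srebf1, Srebf2 and Scap had the highest mean CPM of all members, and Insig1 and Insig2 stood far lower. Srebf1, the SREBP that acts mainly on fatty acid genes and is itself an LXR target, stood at 285, 333 and 328 CPM with vehicle, against 279, 356 and 294 CPM with panobinostat. Srebf2, the SREBP that acts mainly on cholesterol genes (Entrez gene 20788, chromosome 15, 82147269 to 82205379), stood at 348, 220.4 and 201 CPM with vehicle, against 295, 302 and 269 CPM with panobinostat. In Srebf2, as in Mvd and Msmo1, vehicle library 1 was above and vehicle libraries 2 and 3 were below all panobinostat libraries, whereas Srebf1 was lower in vehicle library 1 than in the other two vehicle libraries. Scap ranged from 127 to 150.1 CPM. Insig1, itself an SREBP target, ranged from 28.1 to 44.7 CPM and was highest in panobinostat library 2. Insig2 (chromosome 1, 121304353 to 121332662) stood at 22.6, 23.9 and 22.2 CPM with vehicle, against 21.5, 20.9 and 19.5 CPM with panobinostat. All panobinostat libraries of Insig2 lay below all vehicle libraries, which held for 3.63% of tested genes, with a log2 fold change of -0.15 (SE 0.11, unadjusted p 0.204, edgeR adjusted p 0.998).

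Of the LXR receptors, Nr1h2, the form found in most tissues, stood at 97.8 ± 1.98 CPM with vehicle, against 99.5 ± 9.14 CPM with panobinostat (SD, n = 3). Nr1h3, the form rich in liver and macrophages, was near the floor at 0.563 to 1.17 CPM, from 19 to 37 counts. The exporter Abca1, which loads lipid-poor apolipoprotein, was lower still at 0.319 to 0.861 CPM, from 11 to 30 counts, with overlapping groups. Abcg1 (Entrez gene 11307, chromosome 17, 31057694 to 31117984), which moves cholesterol to lipoprotein particles, was abundant, at 138, 65.9 and 56.8 CPM with vehicle, against 128, 114 and 125 CPM with panobinostat. Vehicle library 1 was again the highest of the 6, and vehicle libraries 2 and 3 were below all panobinostat libraries. Its log2 fold change was 0.49 (SE 0.34, edgeR adjusted p 0.998), and 0.98 (SE 0.11, adjusted p 0.0268) without vehicle library 1. Mylip ranged from 28.9 to 44.7 CPM with overlapping groups. The macrophage list, whose cells are known for Nr1h3 and Abca1, had 12 of 15 genes tested, none of the 15 at 0 in all libraries, with its summed level at 28.1, 22.7 and 26.1 CPM with vehicle, against 16.7, 17.2 and 33.3 CPM with panobinostat. No single macrophage marker exceeded 12.3 CPM in any library, and the part of these cells in the levels of Nr1h3, Abca1 and Soat1 was not tested.

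Scaled by exon length, so that genes can be compared, the members spanned 0.0546 to 72.7 CPM per kilobase of exon as means over the 6 libraries. Srebf1 stood first at 72.7, followed by Srebf2 at 53.7, Nr1h2 at 49.2, Fdps at 38.3 and Scap at 33.1 CPM per kilobase, and the libraries of Srebf1, Srebf2 and Nr1h2 overlapped in part from one to the next. Among the enzymes Fdps, Ebp and Acat2 stood highest, at 38.3, 30.6 and 29.6 CPM per kilobase, and Hsd17b7 lowest, at 2.74. Of the paired genes, Abcg1 stood 281 times as high as Abca1 and Nr1h2 131 times as high as Nr1h3 on this scale. Insig1 stood 1.71 times as high as Insig2. Lrp8, with 4.49 to 10.8 CPM per kilobase, ranked 26 of 33.

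**Figure D3:**
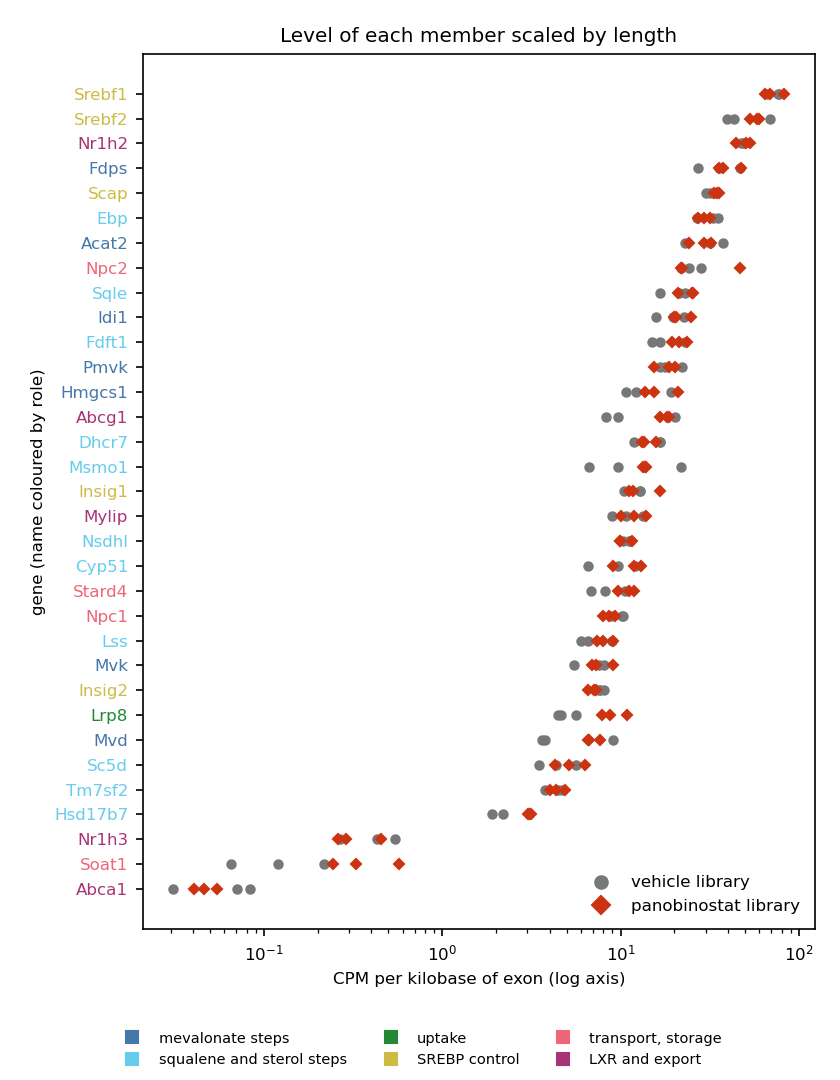
CPM per kilobase of exon (log axis) of each member in the 3 vehicle (grey circles) and 3 panobinostat libraries (red diamonds), ordered by the mean, names coloured by role. Srebf1 at 72.7 and Srebf2 at 53.7 lead, and Nr1h3, Soat1 and Abca1 lie below 1 in every library.

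Synthesis was then set against export. The median log2 fold change was 0.15 for the 18 synthesis enzymes and 0.02 for the 5 LXR and export genes, a difference of 0.13. Without vehicle library 1 the synthesis median was 0.34 and the difference 0.34. In both fits the export median was the value of the receptor Nr1h2 (0.02 and -0.005), so it does not describe the exporters. With all libraries Abcg1 stood at 0.49, Mylip at 0.11 and Abca1, with 11 to 30 counts, at -0.39. Without vehicle library 1 these 3 stood at 0.98, 0.27 and -0.29, and Abcg1 lay above every synthesis enzyme. Centred on each gene's mean, the synthesis median stood at 0.18, -0.06 and -0.39 log2 units with vehicle, against 0.12, 0.17 and -0.06 with panobinostat. The export median stood at 0.41, -0.09 and -0.34 with vehicle, against 0.29, 0.07 and -0.15 with panobinostat. Both medians were positive in vehicle library 1 and panobinostat libraries 1 and 2, negative in the other 3, and lowest in vehicle library 3, so that groups overlapped for both. For the SREBP control genes the median log2 fold change was 0.12, and for transport and storage 0.32. Without panobinostat library 1 the transport and storage median was 0.081, and without panobinostat library 2 the SREBP control median was -0.086.

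**Figure D4:**
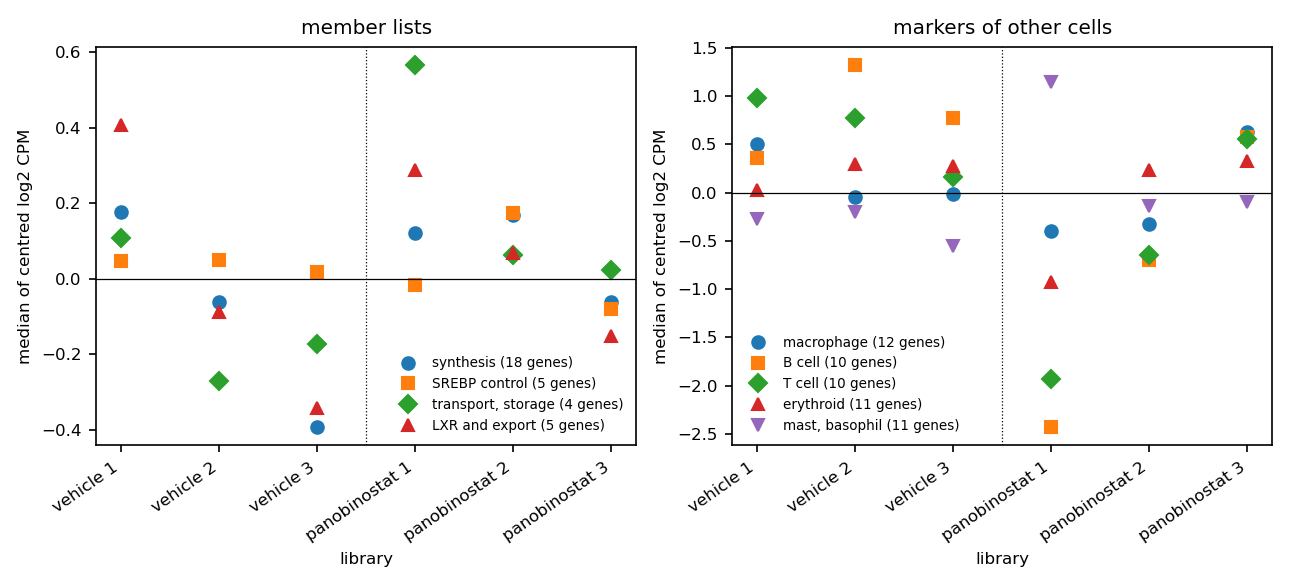
Median log2 CPM, centred by gene, of the member lists (left) and of the cell type marker lists (right, headed markers of other cells) in each of the 6 libraries, with the dotted line between vehicle and panobinostat. Whether the erythroid and mast cell transcripts come from the leukaemia cells or from others was not tested. Synthesis and export are both high in vehicle library 1 (0.18 and 0.41) and low in vehicle library 3 (-0.39 and -0.34), and the B cell, T cell, erythroid and macrophage lists are lowest and the mast cell list highest in panobinostat library 1.

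The calls depended on the libraries numbered 1. Without vehicle library 1, edgeR called 2 of 33 members higher, Abcg1 and Lrp8, and 0 lower, where it called 2.0% of all tested genes higher and 0.419% lower. Mvd had a log2 fold change of 0.92 and an adjusted p of 0.0546 in that setting. Panobinostat library 1 differed by a median of 0.23 and 0.24 log2 CPM from panobinostat libraries 2 and 3, which differed from each other by 0.12. Each library numbered 1 was thus the farthest from its group, and leaving both out also lowered the spread within groups. Without both libraries numbered 1, a fit with 2 libraries in each group, 7 of 33 were called higher and 0 lower, beside 7.36% and 4.65% of all tested genes. The 7 were Abcg1 (log2 fold change 0.95, adjusted p 0.00422), Lrp8 (0.86, 0.00624), Mvd (0.95, 0.0182), Fdft1 (0.49, 0.0256), Srebf2 (0.43, 0.041), Hsd17b7 (0.58, 0.0488) and Msmo1 (0.74, 0.0495). They hold synthesis enzymes, their transcription factor and the exporter alike. Of these, Lrp8 is the single one whose groups did not overlap with all 6 libraries.

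**Figure D5:**
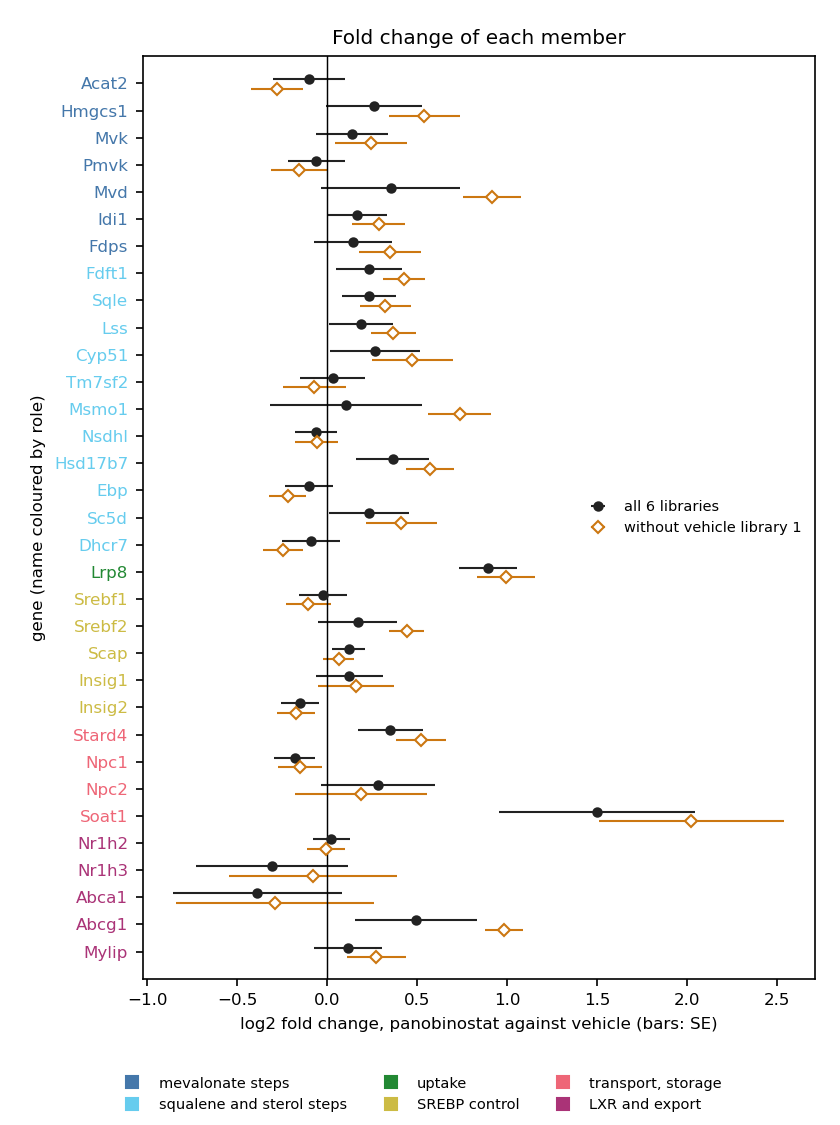
Log2 fold change of panobinostat against vehicle for each member with its SE, from all 6 libraries (filled circles) and without vehicle library 1 (open diamonds), names coloured by role. Lrp8 keeps its value (0.89 and 0.99), while Abcg1 goes from 0.49 to 0.98, Mvd from 0.35 to 0.92 and Msmo1 from 0.10 to 0.74.

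The other genes of the pathway were described through 5 lists with 52 genes, of which 45 were tested and 0 were called in either direction. Estimates were higher for 24 and lower for 21, with a median log2 fold change of 0.00798. All panobinostat libraries lay above all vehicle libraries for 3 of the 45, beside 3.79% of all tested genes. These 3 belonged to fatty acid synthesis, the branch driven mainly by Srebf1. Of the 12 tested genes of that list 7 had a higher and 5 a lower estimate. Elovl6, a fatty acid elongase, stood at 1.99, 0.488 and 1.54 CPM with vehicle, against 4.70, 3.46 and 4.57 CPM with panobinostat, with a log2 fold change of 1.66 (SE 0.52, unadjusted p 0.0168). Fasn, fatty acid synthase, stood at 173, 162 and 165 CPM with vehicle, against 223, 219 and 179.6 CPM with panobinostat, with a log2 fold change of 0.32 (SE 0.12, unadjusted p 0.0308). Acly, which supplies acetyl-CoA in the cytosol, stood at 315 ± 9.34 and 338 ± 9.54 CPM (SD, n = 3). The edgeR adjusted p of each was 0.998.

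Genes with all panobinostat libraries below all vehicle libraries were Lbr, Rnf139 and Lrp1, 3 of 45 beside 3.63% of all tested genes. Lbr, a sterol reductase of the nuclear envelope, stood at 331, 413 and 402 CPM with vehicle, against 321, 329 and 316 CPM with panobinostat. Rnf139, a ubiquitin ligase of the endoplasmic reticulum, stood at 81.4 ± 3.92 and 67.1 ± 11.3 CPM, and Lrp1, a large endocytic receptor, at 1.21 ± 0.0781 and 1.01 ± 0.107 CPM (SD, n = 3). Their edgeR adjusted p was 0.998. Without both libraries numbered 1 edgeR called 2 of 45 of these other genes higher, Fads2 and Gramd1a, and 4 lower, Acat1, Fntb, Lbr and Smpdl3a, beside 7.36% and 4.65% of all tested genes. The log2 fold change of Lbr was then -0.35 (adjusted p 0.0446), against -0.25 with all libraries.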

How the data were processed

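The authors deposited a table of whole-number read counts per Entrez gene for 6 libraries, and the values carry no sign of normalization. The submitters' processing notes name HISAT2 2.1.0, cutadapt 2.1, featureCounts of Subread 2.0.0, limma, FastQC 0.11.6 and bcl2fastq 2.17.1.14, and the build mm10. How these were run, on which annotation and whether by strand is not given in the sources used here, so genes that overlap on opposite strands cannot be told apart. Column names give the group and a number that no label ties to a replicate, so libraries are named by group and that number.

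Symbols and coordinates (1-based) came from RefSeq GRCm38.p6, the assembly of mm10, and matched 25275 of 27179 identifiers. Exon length is the union of protein-coding exons in the GENCODE M21 basic set. Genes passing filterByExpr (minimum count 10) were compared between groups with edgeR 4.0.16 (R 4.3.3), using TMM factors and the robust quasi-likelihood F-test, two-sided, with Benjamini and Hochberg's adjustment over 13207 genes at 0.05. The SE is the log2 fold change divided by the square root of F. List medians per library use log2 CPM with a prior count of 2. Lists got no test. A count of 0 allows up to 3 counts, 0.0834 to 0.0948 CPM, for counting error only. The fit was also run on simulated counts in which no library was set apart, so that run does not bear on the effect of the libraries numbered 1.

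The fit was repeated with DESeq2 1.42.0 and limma-voom 3.58.1, under RLE or upper-quartile factors or library size alone, unfiltered or at a mean of at least 1 CPM, without the robust option, with the replicate block, and with each library or both libraries numbered 1 left out. The members and lists were chosen with earlier results of these data known. Every member is named, those with separated groups, an unadjusted p under 0.05 or a call in an alternative in full, and genes of the other lists where their p was under 0.05 or their groups separated. Scarb1 is named besides, as a lipoprotein receptor. The Hbb-bt row of the erythroid list was not matched.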

Additional observations from a re-analysis of the deposited data

How the results depend on the processing

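The count of called genes was 0 with all 6 libraries and moved to 9 with DESeq2 and to 1590 without both libraries numbered 1. With single libraries left out it ran from 0 to 324, the highest without vehicle library 1. Among the members the count was 0 and moved to 1 with DESeq2 (Lrp8) and to 7 without both libraries numbered 1, and ran from 0 to 2 with single libraries left out, the 2 being Abcg1 and Lrp8 without vehicle library 1. The replicate block gave 0 genes and 0 members. No label states a pairing, although each treated column shares its number with a control column. The correlation of deviations between equally numbered libraries was -0.14, 0.07 and -0.20. With 3 libraries per group these values do not settle whether the libraries were paired. The synthesis median ran from 0.05 to 0.34 and its difference from the export median from 0.06 to 0.34 with single libraries left out, and the difference was 0.04 with a mean of at least 1 CPM, which leaves out 2 export genes. The SREBP control median ran from -0.086 to 0.14 with single libraries left out.

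Of 526 single-member comparisons under alternatives, 494 kept direction and side of the threshold, 10 passed it and 22 changed sign, in 11 members. The changes of sign came with libraries left out and not with another scaling, filter or tool. Leave-one-out log2 fold changes ran from -0.28 to 0.068 for Acat2, -0.012 to 0.24 for Mvk, -0.15 to 0.074 for Pmvk, -0.026 to 0.35 for Fdps, -0.071 to 0.10 for Tm7sf2, -0.20 to 0.74 for Msmo1, -0.14 to 0.047 for Srebf1, -0.086 to 0.23 for Insig1, -0.17 to 0.46 for Npc2, -0.040 to 0.10 for Nr1h2 and -0.013 to 0.27 for Mylip. Without both libraries numbered 1 Tm7sf2 stood at -0.14 and Npc2 at -0.27. The cause was not tested. Depth limits Abca1, Nr1h3 and Soat1, with as few as 11 counts in a library.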

Other observations

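Soat2, the acyltransferase known from intestine and liver, was far more abundant than Soat1 in these cells. It stood at 64.4, 52.6 and 45.3 CPM with vehicle, against 42.8, 52.3 and 54.8 CPM with panobinostat, with overlapping groups. Scaled by exon length it stood at 23.6 CPM per kilobase against 0.258 for Soat1, 91.2 times as high. Of the retinoid X receptors that pair with LXR, Rxrb stood at 91.1 ± 2.88 CPM with vehicle, against 97.9 ± 8.19 CPM with panobinostat (SD, n = 3), and Rxra at 0.112 to 0.758 CPM. Levels of the other LXR-linked genes spread widely, with Lpcat3 at 270.4 to 401 CPM, while Ch25h had 0 counts in each library and Abcg5 and Abcg8 were at most 0.0562 and 0.0890 CPM.

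Other genes had vehicle library 1 far from the rest of its group as well. Gramd1a, a sterol transporter at membrane contacts, stood at 161, 73.5 and 71.6 CPM with vehicle, against 89.1, 107.5 and 102.4 CPM with panobinostat. Fads2, a fatty acid desaturase, stood at 24.4, 6.54 and 7.60 CPM with vehicle, against 6.92, 16.8 and 20.0 CPM with panobinostat. Smpdl3a, an acid phosphodiesterase, ran the other way, at 61.1, 202 and 178 CPM with vehicle, against 115, 122 and 83.5 CPM with panobinostat. The genes named in these observations were picked after their values were seen, and the edgeR adjusted p of Gramd1a, Fads2 and Smpdl3a was 0.998 with all libraries. Without both libraries numbered 1 edgeR called all 3, beside 7.36% of all tested genes called higher and 4.65% lower. Their log2 fold changes were then 0.52 for Gramd1a (adjusted p 0.011), 1.37 for Fads2 (0.00623) and -0.90 for Smpdl3a (0.0361). As these 3 were picked for the distance of vehicle library 1, leaving it out lowered their spread by that choice. These calls are therefore no independent support.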
